A study of Mus musculus with 8 samples.

Results

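The LacZ pull-down was the negative control of an RNA capture experiment, and here it was set against Input, the RNA before capture. The members were the 2 LacZ and the 2 Input libraries of the 8 libraries in the study, paired by replicate number, and 16524 of 55471 genes in the count table were tested. The cells were motor neurons derived from HBG3 mouse embryonic stem cells, which carry an HB9::GFP reporter, and had been plated for 3 days after dissociation. Biotinylated antisense probes of 20 nt against the LacZ mRNA were used for LacZ. The other 4 libraries came from pull-downs with the probe sets ODD and EVEN against the long noncoding RNA Lhx1os, and they entered the fit to estimate the spread. In what follows, experiment 1 means the libraries of replicate 1 and experiment 2 those of replicate 2. The labels name no knockout or drug that 1 group had and another lacked. The labels do not say whether the replicates came from separate cultures, so p-values measure the spread between these libraries, which may be technical.

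In such a capture, probes that pair with a target RNA are pulled out on streptavidin beads together with the target. Mouse cells have no LacZ transcript, so RNA recovered with LacZ probes serves as the measure of background. Nuclear RNA includes unspliced precursor transcripts, whose introns are mostly removed soon after transcription, long noncoding RNAs held at chromatin or in nuclear speckles, and small nucleolar RNAs cut out of introns. Messenger RNAs of secreted and membrane proteins are, by contrast, translated at the endoplasmic reticulum.

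Library totals were 20515501 to 24628435 counts in Input and 7632775 to 11149143 in LacZ, so low levels were less precise in LacZ. All 10 motor neuron markers passed the filter on low counts, as did 1 of 5 pluripotency markers and 0 of 4 blood markers. The summed motor neuron markers stood at 535 CPM (counts scaled to an equal library total) in Input replicate 1 and 1727 CPM in Input replicate 2, and the 4 oligodendrocyte markers at 695 and 113 CPM, so marker levels differed between the Input libraries. In LacZ, 1 of 10 motor neuron markers was higher than Input (Chat, which makes acetylcholine, at 0.69 on the log2 scale), 2 of 6 neural progenitor markers were lower (Olig2 at -0.58 and Sox1 at -0.40), and 2 of 3 oligodendrocyte markers tested were lower (Sox10 at -0.58 and Mbp at -0.47). No interneuron, astrocyte, fibroblast or endothelial marker tested was called in either direction. None of these marker calls was made without the replicate block. With the block 3.72% of all protein-coding genes tested were higher and 8.52% lower, so counts in lists this short support no statement about a cell type. The part of cell type in the results was not tested. In these bulk samples fewer cells of a type and less RNA per cell cannot be told apart.

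Lhx1os itself was not called in LacZ against Input. It had 55 and 61 counts in Input and 16 and 28 in LacZ, which is 2.27 and 2.97 CPM in Input and 2.06 and 2.44 CPM in LacZ. The groups overlapped, and the log2 fold change was -0.19 with SE 0.91 and adjusted p 0.911 in edgeR. The neighbouring gene Lhx1, a transcription factor of motor neuron subtypes, was not called either, at 29.95 and 30.9 CPM in Input and 24.2 and 24.5 CPM in LacZ.

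Genes higher in the control capture were mostly noncoding, while those lower were nearly all protein-coding. edgeR's quasi-likelihood test with the replicate number as a block and Benjamini-Hochberg adjustment called 2092 genes higher in LacZ than in Input, or 12.7% of those tested, and 1157 lower, or 7.0%. Of 3058 noncoding genes tested, 1587 were higher (51.9%) and 10 were lower (0.327%). Of 13455 protein-coding genes, 500 were higher (3.72%) and 1147 were lower (8.52%). Without the block 1075 noncoding genes were higher (35.2%) and 0 lower, 75 protein-coding genes were higher (0.557%) and 71 lower (0.528%), which over all genes is 1153 higher (6.98%) and 71 lower (0.43%). Many noncoding genes passed the filter on low counts through the captures: 1212 of the 3058 had fewer than 10 counts in an Input library, where a gain is the direction the filter favours, and 921 of these were called higher. Of the 1846 that reached 10 counts in both Input libraries, a split made after seeing the data, 666 were higher (36.1%) with a median of 0.59, beside 253 of 13455 protein-coding genes under that count. With TMM factors from protein-coding genes alone, 77.4% of calls were higher, against 64.4% as fitted and 52.1% with the GC trend removed and each library recentred. Of the 88 genes called that are named by rule or list below, 60 were not called without the block, and 45 overlap an exon of another gene, so their values are uncertain in part.

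**Figure D1:**
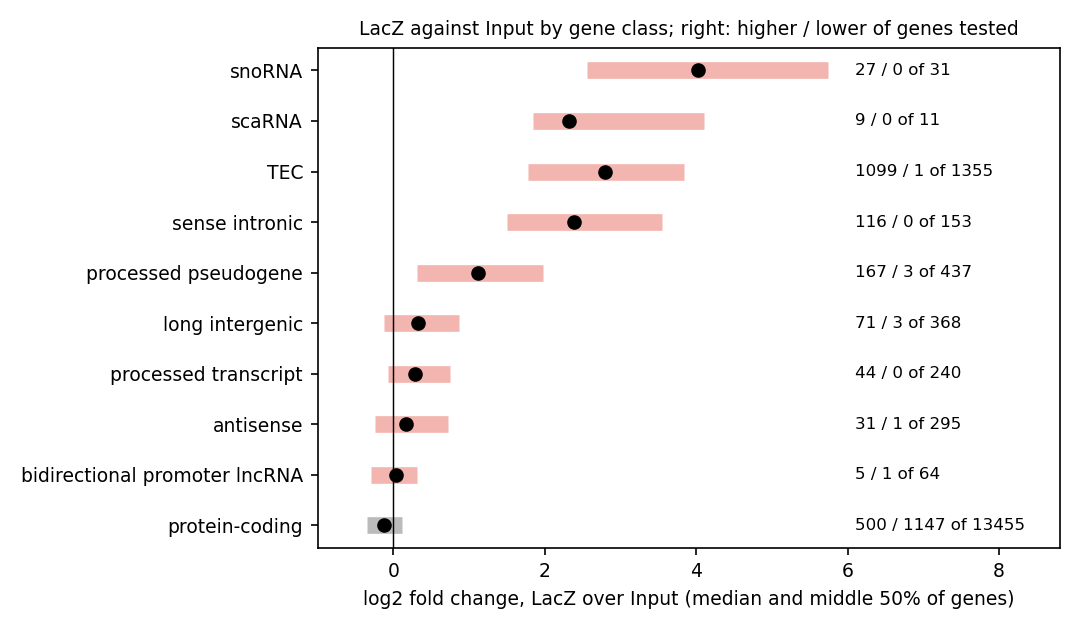
Log2 fold change of LacZ over Input for the genes tested in each annotation class (horizontal axis); points are medians, bars span the middle 50% of genes, and the text on the right gives genes called higher, called lower and tested. The median was -0.12 for protein-coding genes, 2.80 for TEC loci and 4.03 for snoRNAs, where 767 of 1355 TEC loci and 23 of 31 snoRNAs were under 10 counts in an Input library.

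Protein-coding gains were led by 2 single-exon genes and by the clustered protocadherins. Of the genes called higher that were up in both experiments with at least 10 counts in each Input library, Gm4787 was first. It had 11 and 12 counts in Input and 52 and 62 in LacZ, at 0.453 and 0.584 CPM in Input and 6.70 and 5.40 CPM in LacZ, and both LacZ libraries lay above both Input libraries. Its log2 fold change was 3.52 with SE 0.34 and adjusted p 0.000716. Adam4, a gene of the ADAM metalloprotease family, was next at 0.494 and 0.682 CPM in Input and 4.90 and 7.83 CPM in LacZ, again without overlap, with a change of 3.43 with SE 0.35 and adjusted p 0.000878. Both lie on the minus strand of chromosome 12 (chr12:81376991-81379464 and chr12:81419443-81421946, GRCm38) inside the spans of Cox16, a cytochrome oxidase assembly factor, and Gm20498, both transcribed from the same strand, without touching an exon of another gene. Cox16 itself stood at 8.16 and 9.74 CPM in Input and 14.6 and 10.2 CPM in LacZ, with a log2 fold change of 0.46 that was not called (adjusted p 0.275).

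Genes were also counted by such a position. Of 199 protein-coding genes tested that lie inside another coding gene on the same strand, 50 were higher (25.1%) and 7 lower. Most of these 50 were clustered protocadherins, described below, which lie inside one another or inside gene models that span their cluster. Gm4787 and Adam4 are counted among the 50 as well. Of the 82 of the 199 with no exon overlap, 16 were higher (19.5%), among them Gm4787, Adam4, Pcdhb13, Pcdhb14 and Pcdhb15. Of 220 inside a coding gene on the opposite strand only, 6 were higher (2.73%) and 27 lower, and of 13036 inside none, 444 were higher (3.41%) and 1113 lower. Eid3, chosen after its values were seen, lies inside Txnrd1 on the same strand and rose by a log2 fold change of 1.94 (adjusted p 0.0091), where Txnrd1, a thioredoxin reductase, was at -0.08 and was not called.

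The other 8 of the 10 largest gains were clustered protocadherins, neuronal adhesion proteins made by joining 1 of many variable first exons to shared constant exons. Pcdhgb5 was at 3.91 and 3.17 CPM in Input and 24.5 and 31.5 CPM in LacZ, a log2 fold change of 2.97 with SE 0.26 and adjusted p 0.000486. Pcdhga8 was at 4.24 and 4.43 CPM in Input and 22.04 and 27.1 CPM in LacZ, a change of 2.49 with SE 0.19 and adjusted p 0.000327. Pcdhga9, Pcdhgc5 and Pcdhga12 of the gamma cluster rose by 2.29, 2.27 and 2.07 on the log2 scale, and Pcdha8, Pcdhac1 and Pcdha5 of the alpha cluster by 2.47, 2.18 and 2.07. Neither Pcdha8 nor Pcdha5 passed the threshold without the block. Over these 2 clusters, in lists drawn up after the values were seen, 14 of 21 gamma genes and 9 of 14 alpha genes were higher. In them 0 were lower, and the medians were 1.15 and 1.42 beside -0.12 over all protein-coding genes. Without the block 12 and 3 were called, and the alpha median was 0.65 in limma on log2(FPKM + 1). Every member of both clusters overlaps an exon of another gene, so the value of a single member is uncertain. The beta cluster was not listed. Among its genes Pcdhb12, Pcdhb13, Pcdhb14 and Pcdhb15 were called higher, and Pcdhb2 was called lower at -0.90.

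**Figure D2:**
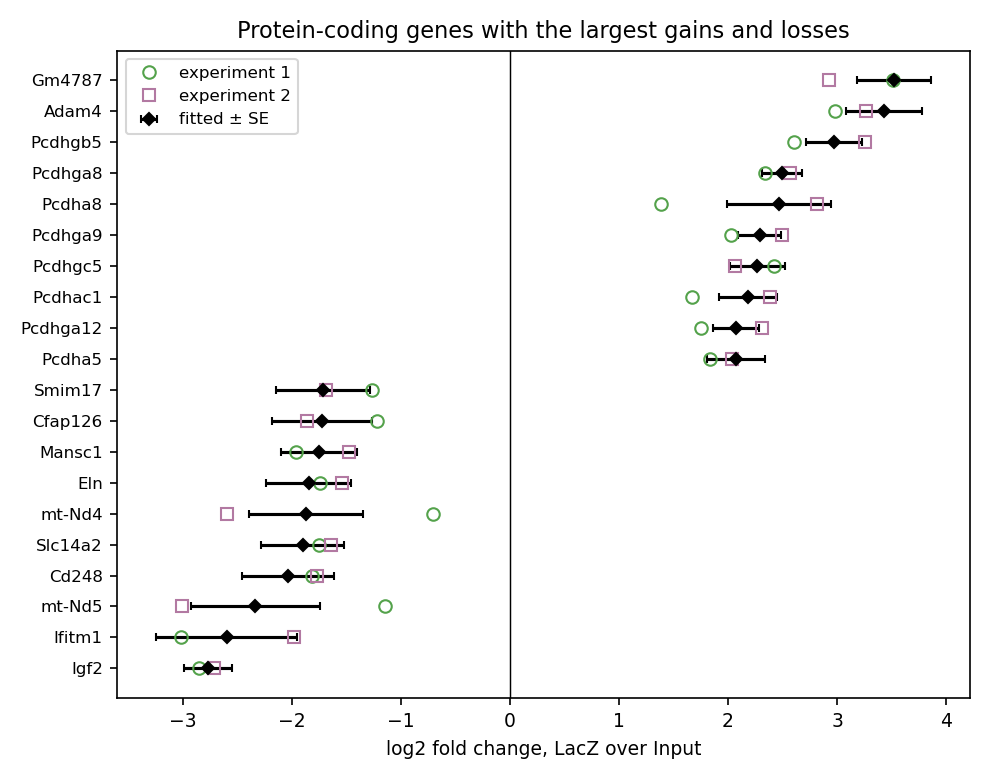
Log2 fold change of LacZ over Input (horizontal axis) for the 10 largest protein-coding gains and the 10 largest losses that met the naming rule. Black diamonds are the fitted value with its standard error, and circles and squares are the log2 ratio of CPM with a prior count of 2 in experiments 1 and 2. Each gene moved the same way in both experiments, as the naming rule requires, and mt-Nd4 and mt-Nd5 showed a wide gap between them.

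Gains included messenger RNAs known to be retained in nuclear speckles or to be regulated through splicing. Of 26 such genes tested, 12 were higher (46.2%, against 3.72% of all protein-coding genes) and 0 lower, with a median of 0.48. In both experiments 25 of 26 were up, against 2777 of 13455 protein-coding genes. Luc7l3, a splicing factor of the U1 particle, was at 103 and 159.9 CPM in Input and 235 and 335 CPM in LacZ, a change of 1.13 with SE 0.16 and adjusted p 0.00315. Clk1, a kinase that phosphorylates SR splicing factors and whose own transcript keeps introns, was at 54.2 and 81.3 CPM in Input and 103 and 154 CPM in LacZ, a change of 0.93 with SE 0.14 and adjusted p 0.00358. Pnisr, a serine and arginine rich nuclear protein, rose by 0.91. In each of these 3 genes both LacZ libraries lay above both Input libraries. Ccnl1, Ccnl2, Clk2, Clk4, Luc7l2, Nktr, Rbm25, Rbm5 and Tia1 were the other members called, between 0.44 and 0.78. Srsf12 was the only 1 of 11 SR factor genes called, lower at -0.75. Without the block 1 member of the list was called, and with the GC trend removed and recentred the list's median was 0.19.

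Some very long neuronal genes were also gained. Of 32 adhesion and synapse genes with very long spans, 7 were higher (21.9%, against 3.72% of all protein-coding genes) and 0 lower, with a median of 0.18 that was 0.07 with the GC trend removed and recentred. Lrp1b, a lipoprotein receptor relative, was at 9.93 and 28.7 CPM in Input and 20.2 and 94.6 CPM in LacZ, a change of 1.38 with SE 0.20 and adjusted p 0.00358. Input replicate 2 lay above LacZ replicate 1 for this gene, so only the ratios within experiments set the groups apart. Csmd3, a synaptic membrane protein, was at 11.1 and 6.58 CPM in Input and 20.2 and 19.2 CPM in LacZ, where the groups did not overlap, and rose by 1.18. Of 42 voltage-gated channel genes, 5 were higher (11.9%, against the same 3.72%) and 0 lower, with a median of 0.09. The median log2 ratio of this list was -0.15 in experiment 1, where 18 of 42 were up, and 0.28 in experiment 2, where 35 were up. Calcium channel pore subunits made up 4 of the 5: Cacna1d rose by 0.99, Cacna1e by 0.92, Cacna1c by 0.83 and Cacna1a by 0.79. The other was the sodium channel gene Scn8a at 0.55. Among axonemal dynein heavy chains, a list drawn up after the values were seen, 4 of 11 were higher (36.4%), with a median of 0.79 that was 0.10 in limma on log2(FPKM + 1), and with Dnah7b at 1.30 and Dnah10 at 1.12. Without the block Csmd3, Cacna1c and 0 of the dyneins were called in these lists.

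Zinc finger genes named Zfp, a large family of mostly nuclear transcription factors, were called higher at about the general share. Of 357 tested, 16 were higher (4.48%, against 3.72% of all protein-coding genes) and 8 lower (2.24%, against 8.52%), with a median of -0.01. Without the block 2 were higher and 0 lower. Zfp950 was at 20.5 and 23.6 CPM in Input and 41.6 and 47.2 CPM in LacZ and rose by 1.01, a direction that turned once the GC trend was removed. Zfp433 and Zfp276 were at 0.98 and 0.97. Zfp276 was highest in LacZ replicate 1, at 117 CPM where the other 3 libraries were between 33.7 and 43.4 CPM. It was not called without that library.

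Protein-coding losses had a median log2 fold change of -0.65 and gains a median of 0.83. Igf2, an insulin-like growth factor that is secreted, fell most. It was at 16.8 and 40.9 CPM in Input and 2.19 and 6.09 CPM in LacZ, with both LacZ libraries below both Input libraries, and its log2 fold change was -2.77 with SE 0.22 and adjusted p 0.000366. An exon of Igf2 overlaps another gene, so its value is uncertain in part. Among the 10 largest losses, Igf2 was the 1 gene also called without the block. Ifitm1, an interferon-induced membrane protein, had 25 and 51 counts in Input and 0 and 6 in LacZ and a change of -2.60 with SE 0.65 and adjusted p 0.0291. Cd248, a membrane glycoprotein of stromal cells, was at 2.64 and 2.44 CPM in Input and 0.645 and 0.609 CPM in LacZ, a change of -2.03 with SE 0.42 and adjusted p 0.0148. Eln, the secreted protein elastin, had 50 and 37 counts in Input and 4 and 6 in LacZ, a change of -1.85. Slc14a2, a urea transporter, had 124 and 23 counts in Input and 11 and 3 in LacZ and a change of -1.90; LacZ replicate 1 lay above Input replicate 2 in CPM, so the loss shows within experiments. Mansc1, Cfap126 and Smim17 fell by 1.75, 1.72 and 1.72 on the log2 scale, each from under 5 CPM in Input.

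Losses included genes of the endoplasmic reticulum and the secretory pathway. Of 29 tested, 13 were lower (44.8%, against 8.52% of all protein-coding genes) and 0 higher, with a median of -0.51 beside -0.12 over all protein-coding genes. In both experiments 16 of 29 were down, against 5755 of 13455 protein-coding genes. Another 10 of the 29 were up in experiment 1 and down in experiment 2. Kdelr2, a receptor that returns escaped proteins to the endoplasmic reticulum, was at 76.1 and 51.9 CPM in Input and 29.9 and 16.9 CPM in LacZ, a change of -1.48 with SE 0.13 and adjusted p 0.000568. Its relative Kdelr1 was at 78.03 and 56.9 CPM in Input and 38.7 and 25.6 CPM in LacZ, a change of -1.08 with SE 0.14 and adjusted p 0.00210. In both genes all LacZ values lay under all Input values. Rpn1, a subunit of the complex that attaches sugars to asparagine, fell by 1.05, and its partners Ddost, Dad1 and Rpn2 by 0.98, 1.01 and 0.68. The translocon genes Ssr3, Sec61a1 and Ssr1 and the chaperones Canx and Calr were lower by 0.52 to 0.77, and the signal peptidase subunit Spcs3 and the cargo receptor Tmed10 by 0.50 and 0.76. Not called were the chaperone Hspa5 at -0.04 and Ssr2, the highest of the list at 1.37, which was at 86.5 and 69.3 CPM in Input and 655 and 34.8 CPM in LacZ. Without the block Tmed10 was the 1 member called.

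Related families were chosen after the values were seen. Of 9 Tmed genes, cargo receptors between the endoplasmic reticulum and the Golgi, 7 were lower (77.8%, against 8.52% of all protein-coding genes) and 0 higher, with a median of -0.65. Tmed10 fell from 218 and 188 to 120.0 and 118 CPM. Of 12 Alg genes, which build the sugar chain for glycosylation, 6 were lower (50.0%), among them Alg3 at -1.08 and Alg2 at -0.86. Of 16 tetraspanins, which span the plasma membrane, 6 were lower (37.5%), with Tspan31 at -1.19 and Tspan9 at -0.95. Of 39 collagen genes 7 were lower (17.9%) and 2 higher (5.13%, near the 3.72% of all protein-coding genes). Col4a2, a basement membrane collagen, was at 66.9 and 60.1 CPM in Input and 23.5 and 35.3 CPM in LacZ, whereas Col7a1 rose by 2.18 from 6 and 12 counts. Without the block 2 Tmed genes, 0 Alg genes, 1 tetraspanin and 0 collagen genes passed.

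Several abundant families moved in opposite directions in the 2 experiments and gave few calls. Of 58 replication-dependent histone genes, whose transcripts lack a poly(A) tail, 2 were higher (3.45%, near the general 3.72%) and 0 lower, and none without the block. Their median log2 ratio was 1.47 in experiment 1 and -0.48 in experiment 2, and 49 of 58 were up in the first and down in the second. Summed over the list, histone transcripts stood at 3279 CPM in Input and 9114 CPM in LacZ in experiment 1, and at 3805 and 3116 CPM in experiment 2. Hist1h1b and Hist1h1d, linker histones, were up in both, at 0.86 and 0.91. Of 82 ribosomal protein genes 71 were up in experiment 1 and down in experiment 2, with medians of 0.46 and -0.58. Of 89 nuclear-encoded oxidative phosphorylation genes 69 split the same way, with medians of 0.29 and -0.63, and only Atp5e, an ATP synthase subunit, was called, lower at -1.08.

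The 10 mitochondrially encoded messenger RNAs tested had a median of -1.27, which was -2.42 with the GC trend removed and -2.48 when also recentred. The medians of the log2 ratios were -0.25 in experiment 1 and -1.85 in experiment 2. In experiment 1 their summed level was 4866 CPM in Input and 5584 CPM in LacZ, and in experiment 2 it was 6802 and 2275 CPM. Of these, 2 subunits of respiratory complex I were called. mt-Nd5 was at 435 and 876 CPM in Input and 196 and 109 CPM in LacZ, a change of -2.33 with SE 0.59 and adjusted p 0.0302, and mt-Nd4 was at 326 and 579 CPM in Input and 199.6 and 95.8 CPM in LacZ, a change of -1.87 with SE 0.52 and adjusted p 0.0441. Neither was called without the block. Mitochondrial genes adjoin or overlap each other on both strands, so single values are uncertain.

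Translation factor and proteasome genes were called higher at or under the general share. Of 65 initiation and elongation factor genes, 2 were higher, or 3.08% against 3.72% of all protein-coding genes (Eif2s3y at 1.04 and Eif5b at 0.70) and 1 lower (Eif2ak1, a kinase that halts initiation, at -0.55). The gain of Eif2s3y turned into a loss once the GC trend was removed. Of 38 proteasome subunit genes, 1 was higher (Psma7, 0.52) and 1 lower (Psmd11, -0.54). Of 17 immediate early genes, which respond fast to stimulation, 0 were higher and 2 lower, or 11.8% against 8.52% of all protein-coding genes (Nr4a3 at -0.40 and Btg2 at -0.39). The list's median of -0.21 turned to 0.10 with the GC trend removed. No call in these 3 lists was made without the block, and Btg2 was also lost with RLE size factors. The genes with the most counts in LacZ included Map1b, a microtubule-associated protein, Eef1a1, an elongation factor, and Actb, and none of the 3 was called. Map1b was at 3842 and 5043 CPM in Input and 2396 and 4895 CPM in LacZ. Gapdh was at 548 and 566 CPM in Input and 488 and 359 CPM in LacZ and was not called.

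**Figure D3:**
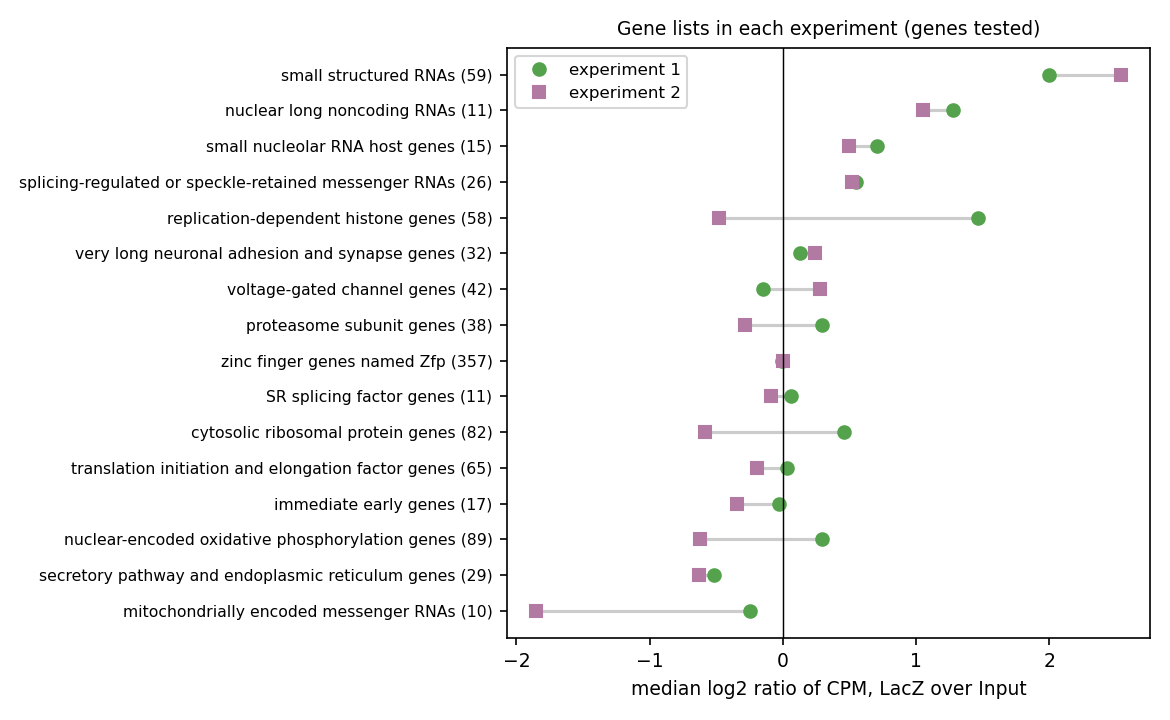
Median log2 ratio of CPM in LacZ over Input (horizontal axis) for each gene list, with the number of genes tested in parentheses; circles are experiment 1 and squares experiment 2. Histone genes lay at 1.47 and -0.48. The 2 medians of secretory pathway genes lay close together at -0.51 and -0.63, although 10 of the 29 genes were up in experiment 1 and down in experiment 2.

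Gained and lost protein-coding genes differed in structure and in Input level from the rest, as described by medians without a test. The 500 gained genes had a median exonic length of 6800 bases against 4635 for all protein-coding genes tested, 14.5 exons against 9, a GC content of 47.3% against 49.7%, and 15.8 CPM in Input against 34.97 CPM. Exons of 255 of them (51.0%) overlapped another gene, against 36.8% overall. The 1147 lost genes had a median of 3973 bases, 7 exons, 51.3% GC and 64.2 CPM in Input. The calls were made against Input, so its low level in gained genes and high level in lost genes follow in part from the comparison. Where all protein-coding genes were split into 4 equal bins by exonic length, the median log2 fold change ran from -0.23 in the shortest bin to 0.01 in the longest. That trend lay in experiment 2, where the bins had medians of -0.46, -0.24, -0.09 and 0.12. In experiment 1 they were at 0.02, -0.12, -0.14 and -0.09. By bins of GC content the medians fell in both experiments, from 0.02 to -0.16 in experiment 1 and from -0.07 to -0.22 in experiment 2.

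Across genes, the log2 ratios of the 2 experiments correlated with r = 0.399 over 13455 protein-coding genes and r = 0.822 over 3058 noncoding genes. The experiments share no library, but genes are not independent and share base composition and length. The 2 sets of genes also differ in how they passed the filter. Of the noncoding genes 1212 had fewer than 10 counts in an Input library, against 253 of the protein-coding genes. For such genes the filter favours a gain in both experiments, so the 2 values of r cannot be set against each other. Of the protein-coding genes 4923 moved in opposite directions, and of the noncoding genes 535 did.

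Most noncoding gains were TEC loci. TEC loci, transcribed regions whose status as genes still awaits experiments, made up 1099 of the 1587 gains. They rose in 1099 of 1355 tested (81.1%), and 1 was lower. Without the block 834 were higher. Of these loci 767 had fewer than 10 counts in an Input library and so passed the filter mostly through the captures, and of the 588 others 429 were higher (73.0%), with a median of 1.89. TEC loci took 0.132 and 0.169% of Input counts and 0.683 and 0.861% of LacZ counts, so the ratio was 5.19 in experiment 1 and 5.09 in experiment 2. Sense intronic transcripts rose in 116 of 153 (75.8%), with a median of 2.38, and in 40 of the 59 that reached 10 counts in both Input libraries (67.8%). Processed pseudogenes, copies of messenger RNAs inserted in the genome, rose in 167 of 437 (38.2%) and fell in 3. Long intergenic RNAs rose in 71 of 368 (19.3%), and antisense RNAs in 31 of 295 (10.5%). The shares were lower among genes that reached 10 counts in both Input libraries. They were 56 of 229 for processed pseudogenes not annotated as transcribed (24.5%), with a median of 0.64. For long intergenic RNAs they were 51 of 305 (16.7%), and for antisense RNAs 21 of 248 (8.47%).

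**Figure D4:**
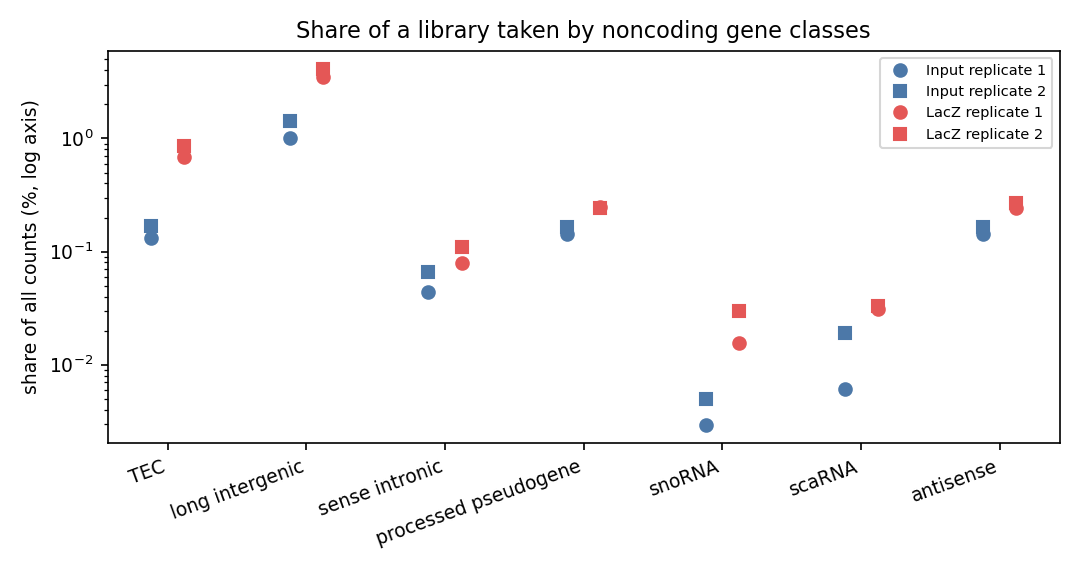
Share of all counts in a library (vertical log axis, percent) taken by noncoding gene classes; blue is Input, red is LacZ, circles are replicate 1 and squares replicate 2. In each class shown both LacZ libraries lay above both Input libraries, by 5.19-fold and 5.09-fold within experiments for TEC loci and by 1.68-fold and 1.64-fold for antisense RNAs.

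TEC loci were then split by the strand of the surrounding gene. Of 1095 TEC loci inside a protein-coding gene on the same strand, 981 were higher (89.6%), with a median of 3.04. Of 35 inside a coding gene on the opposite strand only, 14 were higher, and of 225 inside no coding gene, 104 were higher (46.2%). These shares were not split by Input level. Of all 1355 TEC loci tested, 767 had fewer than 10 counts in an Input library, where the filter favours a gain. Whether the positions differ in this was not tested. The 554 tested host genes of the gained loci had a median of -0.02, and 37 of them were higher and 27 lower. Most hosts of gained loci were thus not called. Processed pseudogenes not annotated as transcribed, 378 of the 437, were split the same way. On the strand of a host 83 of 124 were higher (66.9%), against 7 of 31 on the opposite strand only (22.6%) and 57 of 223 inside none (25.6%). This split was not made by Input level either, and 149 of the 378 had fewer than 10 counts in an Input library.

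Auts2, a chromatin regulator of neuronal genes, held the most such loci. All 22 TEC loci tested in it were higher, with a median of 4.45 and a highest value of 5.05, while Auts2 itself was at 209.5 and 262 CPM in Input and 240.04 and 307 CPM in LacZ, a change of 0.21 that was not called (adjusted p 0.294). Adgrb3, an adhesion receptor at synapses, held 19, all higher between 3.99 and 5.50, and Adgrb3 itself was called higher at 0.93, from 54.3 and 37.99 to 88.7 and 85.3 CPM. The synaptic genes Cntnap2 and Dlg2 held 15 each, Pcdh7 held 13, Ank2 12, Maml3 11, Fam155a 10 and Ctnna2 9. All these loci were higher, and none of these 7 hosts was called. The hosts were ranked by the number of loci called higher. Of all 1355 TEC loci tested, 767 had fewer than 10 counts in an Input library, where the filter favours a gain. That every tested locus of a host was higher therefore supports no direction.

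**Figure D5:**
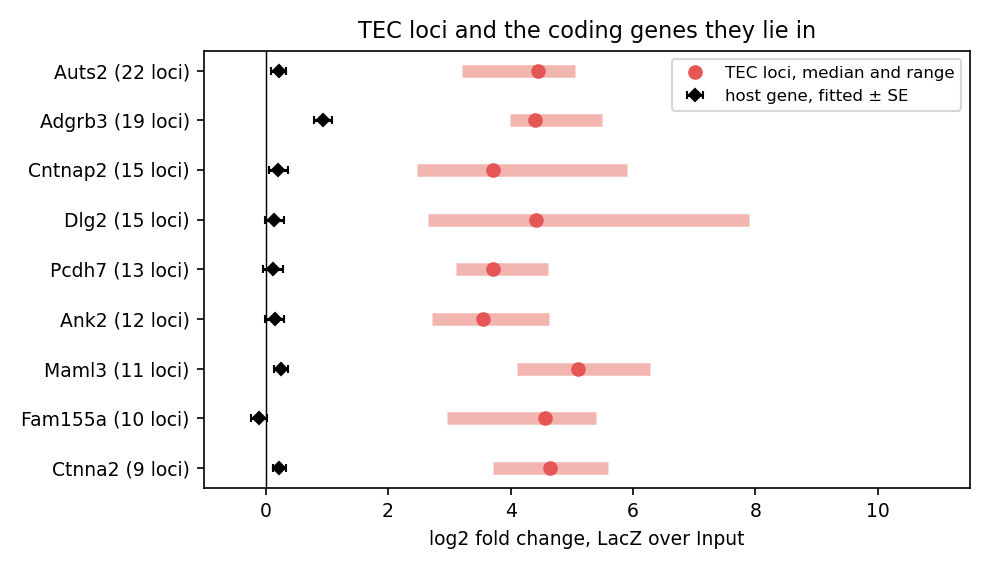
Log2 fold change of LacZ over Input (horizontal axis) for the 9 coding genes that held the most TEC loci; red points and bars are the median and range of the loci, and black diamonds the host gene with its standard error. Hosts were ranked by the number of loci called higher, and 767 of all 1355 TEC loci tested were under 10 counts in an Input library. All loci lay above 2, and all hosts lay under 1.

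Single loci showed the size of the effect. 2900027M19Rik, a TEC locus inside Fam155a, had 20 and 27 counts in Input and 226 and 552 in LacZ. That is 0.824 and 1.32 CPM in Input and 29.1 and 48.04 CPM in LacZ, a log2 fold change of 5.16 with SE 0.21 and adjusted p 0.000195. Fam155a was at 45.6 and 63.8 CPM in Input and 40.5 and 61.8 CPM in LacZ, and its change of -0.11 was not called. Gm36952 and Gm37895, both inside Adgrb3, were at 0.742 and 0.633 to 20.2 and 23.1 CPM and at 0.700 and 0.925 to 25.4 and 24.3 CPM (Input to LacZ), changes of 4.96 and 4.93. In all 3 loci both LacZ libraries lay far above both Input libraries. The sense intronic transcripts Ppnr in Tcf7l2, Gm47920 in Zmiz1 and Gm43462 in Man1a2 rose by 3.46, 3.15 and 3.04. Of these hosts only Tcf7l2, a transcription factor of Wnt signalling, was called, and it was lower (-0.43).

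Base composition went with these classes. The gained TEC loci had a median GC content of 40.4%, against 43.2% for TEC loci not called and 49.7% for protein-coding genes. The first 180 bases of 2900027M19Rik (chr8:9690097-9690276) and of Gm43462 (chr3:100630765-100630944) are given as examples of loci inside a host gene. Both lie on the minus strand of GRCm38, and the sequences were taken from GENCODE M21 transcripts. Whether their reads were intron RNA of the host was not tested. Runs of 6 or more A or T are in capitals.
2900027M19Rik: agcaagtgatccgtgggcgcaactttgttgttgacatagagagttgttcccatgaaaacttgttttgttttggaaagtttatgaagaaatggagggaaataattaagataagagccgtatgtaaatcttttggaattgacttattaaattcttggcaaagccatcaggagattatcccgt
Gm43462: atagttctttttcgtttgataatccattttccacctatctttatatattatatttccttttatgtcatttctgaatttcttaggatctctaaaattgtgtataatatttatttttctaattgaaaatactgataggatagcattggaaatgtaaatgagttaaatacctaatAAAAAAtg
The first window holds no such run and the second holds 1. AAAAAA or TTTTTT, which covers both strands, was in the first 180 bases of 368 of 1099 gained TEC loci (33.5%), of 68 of 255 TEC loci not called (26.7%), of 46 of 153 sense intronic transcripts (30.1%) and of 851 of 13450 protein-coding transcripts (6.33%). The share thus went with the class more than with the call, and its part in the gains was not tested.

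Few small nucleolar RNAs could be tested. They guide the modification of ribosomal RNA in the nucleolus, and most in mammals are cut from introns of host genes. Of 31 tested, 27 were higher and 0 lower, with a median of 4.03, and of 11 small Cajal body RNAs, which guide modification of spliceosomal RNAs, 9 were higher. Without the block 9 and 5 were called. Only 31 of 1507 annotated snoRNA genes passed the filter, and 23 of the 31 had fewer than 10 counts in an Input library, so these passed mostly through the captures, and the count and median over all 31 support no direction. Of the 8 that reached 10 counts in both Input libraries 7 were higher, with a median of 2.56. Of the 11 small Cajal body RNAs 5 had fewer than 10 counts in an Input library, and these 5 were all called higher. Of the 6 that reached 10 counts 4 were higher. Over all noncoding genes that reached 10 counts in both Input libraries the share was 36.1%. Over all small structured RNAs the median of 2.74 was 2.14 with a minimum of 50 counts in 2 libraries. Their counts were low, and snoRNAs as a class took 0.00294 and 0.00494% of Input counts and 0.0157 and 0.0300% of LacZ counts. The 3 with the largest changes that had at least 10 counts in each Input library are shown, from GENCODE M21, with the ACA box of H/ACA snoRNAs in capitals, 3 bases from the 3′ end.
Gm25776: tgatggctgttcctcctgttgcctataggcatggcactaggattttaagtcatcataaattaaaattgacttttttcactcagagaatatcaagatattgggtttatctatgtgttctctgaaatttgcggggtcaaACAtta
Snora73a: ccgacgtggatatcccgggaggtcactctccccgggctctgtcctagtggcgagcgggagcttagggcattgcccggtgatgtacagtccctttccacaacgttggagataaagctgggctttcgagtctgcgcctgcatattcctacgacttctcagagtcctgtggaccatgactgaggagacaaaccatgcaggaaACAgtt
Snora73b: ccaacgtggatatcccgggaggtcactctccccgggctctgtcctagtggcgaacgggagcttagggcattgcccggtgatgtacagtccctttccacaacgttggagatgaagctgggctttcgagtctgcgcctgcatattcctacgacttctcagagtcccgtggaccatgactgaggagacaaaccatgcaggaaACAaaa
ACANNN at the 3′ end of the transcript, searched on its own strand, was found in 19 of 27 gained snoRNAs, 20 of 31 tested and 276 of 1507 in the annotation (18.3%). Snora73a and Snora73b agree at 198 of 205 positions, so reads could be shared between them and each value is uncertain.

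Gm25776 lies inside Gtf2a1, a general transcription factor gene on chromosome 12, and had 74 and 80 counts in Input and 243 and 483 in LacZ. That is 3.05 and 3.90 CPM in Input and 31.3 and 42.04 CPM in LacZ, a change of 3.39 with SE 0.25 and adjusted p 0.000317, while Gtf2a1 was lower at -0.50. Snora73a and Snora73b lie inside Rcc1, a chromatin-bound exchange factor, on chromosome 4. Snora73b was at 1.57 and 1.85 CPM in Input and 7.86 and 22.3 CPM in LacZ, a change of 2.97 with SE 0.47 and adjusted p 0.00479, and Snora73a at 0.742 and 1.12 CPM in Input and 3.48 and 15.2 CPM in LacZ, a change of 3.13 with SE 0.45 and adjusted p 0.00328. Most of the rise of the pair lay in LacZ replicate 2, although LacZ was above Input in both experiments, and neither was called without the block. Rcc1 was not called, at -0.24. Of 23 host genes of gained snoRNAs on the same strand, 0 were higher and 1 was lower, with a median near 0. Over all small structured RNAs tested, 39 of 59 were higher (66.1%, against 51.9% of all noncoding genes). Only the Ro-associated Y RNA Rny1 was lower, at -0.86. Of 10 spliceosomal snRNA genes tested, 1 was higher and 0 were lower, with a median of -0.29.

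All 11 tested members of a list of long noncoding RNAs, most of them known to stay in the nucleus, were higher, with a median of 1.21. Over all noncoding genes the share was 51.9%, and 36.1% over those that reached 10 counts in both Input libraries. The list includes Gm26917, described below, and leaves out Tug1, which was lower. Of the 11, 9 overlap an exon of another gene, so their values are uncertain. Kcnq1ot1, an imprinted RNA that acts on chromatin, was at 51.3 and 121 CPM in Input and 915 and 1106 CPM in LacZ, a change of 3.61 with SE 0.35 and adjusted p 0.000699. Malat1, which is held in speckles, was at 2866 and 5380.1 CPM in Input and 10152 and 10649.9 CPM in LacZ, a change of 1.38 with SE 0.25 and adjusted p 0.00895. Meg3 and Mirg, imprinted RNAs of 1 locus on chromosome 12, rose by 1.21 and 1.92, and Neat1, which builds paraspeckles, by 1.15. Miat, Pvt1, Rian and Firre were at 1.22, 0.75, 0.65 and 0.57. For Kcnq1ot1, Malat1, Meg3, Mirg and Neat1 both LacZ libraries lay above both Input libraries. Without the block Kcnq1ot1 and Gm26917 were called and the other 9 were not.

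Gm26917 took the most counts of any gene in LacZ. It was at 1769.6 and 1621 CPM in Input and 14735 and 18074 CPM in LacZ, a change of 3.26 with SE 0.27 and adjusted p 0.000451, and the call was lost with limma on log2 FPKM. It lies on chromosome 17 (chr17:39843013-39846341) and ends 12 bases before an 18S ribosomal RNA pseudogene of RefSeq on the same build, with a GC content of 69.1%. Gm42418, which overlaps that pseudogene, rose by 2.55, and CT010467.1, a ribosomal RNA gene on the other strand, rose by 3.14 from 20 and 24 to 55 and 123 counts. Ribosomal RNA was depleted during library preparation, per the labels' protocols, and its part in these values was not tested.

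Noncoding hosts of snoRNAs were then counted. Of 15 small nucleolar RNA host genes tested, 8 were higher (53.3%) and 0 lower, with a median of 0.60. The share was 51.9% over all noncoding genes and 36.1% over those that reached 10 counts in both Input libraries. Snhg11, a neuronal nuclear RNA, was at 101 and 384 CPM in Input and 245 and 797 CPM in LacZ, a change of 1.16 with SE 0.14 and adjusted p 0.00171. Gas5 and Snhg1 rose by 1.06 and 0.93. Input replicate 2 lay above LacZ replicate 1 for Snhg11, so the gain shows within experiments. None of the 8 was called without the block, and 12 of the 15 overlap an exon of another gene.

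Among other long intergenic RNAs, Gm32849 inside Nav2, a neuron navigator gene that was itself higher by 0.55, led the named gains, at 0.577 and 0.584 CPM in Input and 19.5 and 14.01 CPM in LacZ, a change of 4.86 with SE 0.30 and adjusted p 0.000225. Gm45159 inside Dlg2 rose by 3.74 and A430106G13Rik by 3.54. The antisense RNAs C78197 and Gm38336 were at 3.01 and 2.59, the first not called without the block. Wdr46-ps, a processed pseudogene inside Akap9, rose by 2.97, with 15 and 13 counts in Input and 36 and 61 in LacZ. Gm5540, another pseudogene, was at 2.43 and 0.633 CPM in Input and 29.4 and 1.65 CPM in LacZ, so LacZ replicate 1 carried its value, and it was not called without that library. Gm5844 rose by 2.56, mostly in LacZ replicate 2. Reads of pseudogenes can come from their parent genes, and the sources used here do not say how such reads were assigned.

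In LacZ 10 noncoding genes were lower, and 4 of them are given here; Tug1 was chosen after its values were seen. H19, an imprinted RNA that is abundant in the cytoplasm, was at 938 and 1495 CPM in Input and 573 and 607 CPM in LacZ, a change of -1.01 with SE 0.17 and adjusted p 0.00592. Both LacZ libraries were under both Input libraries. Tug1 was at 449 and 439 CPM in Input and 264 and 338 CPM in LacZ, a change of -0.57 with SE 0.14 and adjusted p 0.0236. Gm9776 and the pseudogene Gm3226 fell by 1.15 and 1.04. None of the 4 was called without the block. H19, Tug1 and Gm3226 overlap an exon of another gene, so their values are uncertain.

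In sum of counts the background stayed protein-coding. Protein-coding genes took 98.2 and 97.4% of Input counts and 94.7 and 93.6% of LacZ counts, and all noncoding classes together 1.85 and 2.55% of Input counts and 5.33 and 6.39% of LacZ counts. Long intergenic RNAs took 1.01 and 1.43% of Input counts and 3.48 and 4.15% of LacZ counts, and without the 10 genes of most counts, which include Gm26917, Malat1 and Meg3, their mean share in LacZ was 0.835%. With 2 libraries against 2 an exact permutation test cannot go below p = 0.333, so shares are given without a test.

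The control capture was then set directly against the captures with Lhx1os probes, which leaves Input out of the difference. No gene passed the adjusted threshold for LacZ against the mean of ODD and EVEN in edgeR (0.0% of 16524), 537 had an unadjusted p under 0.05 (3.25%), and DESeq2 called 11. Over the 3249 genes called against Input the median absolute log2 difference from ODD and EVEN was 0.13. This does not show that the captures act alike. TEC loci took 0.635 and 0.804% of counts in ODD and 0.657 and 0.527% in EVEN, beside 0.683 and 0.861% in LacZ. Among the 11 genes called by DESeq2, Lhx1os was lower in LacZ by 4.95 on the log2 scale, and the processed pseudogenes Gm5540, Gm11223 and Gm4366 were higher by 3.13, 1.57 and 1.17. The other 7 were protein-coding and lower in LacZ: Ptma, Lpl, Rtca, Znhit6, Gm3854, Tsr3 and Canx, by 0.67 to 1.53. Leaving out LacZ replicate 2 gave 19 calls, ODD replicate 2 gave 17 and EVEN replicate 2 gave 6.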

How the data were processed

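RNA of 8 libraries (Input, LacZ, ODD and EVEN, 2 replicates each) was analysed from the tables the authors deposited: raw counts per gene, and FPKM values, which the authors scaled by library and gene length. The labels' protocols give a stranded total RNA kit with ribosomal RNA depletion. The submitters' processing notes name cutadapt 3.2, Bowtie2 2.4.2, Picard, HTSeq 0.13.5 and GRCm38. For counting, the strand setting and annotation release are not given in these sources. All columns were matched to samples by name (0 unmatched).

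Counts were fitted in edgeR 4.0.16 (R 4.3.3) over all 8 libraries with group and replicate number, TMM factors, filterByExpr by group and the two-sided quasi-likelihood test, with Benjamini-Hochberg adjusted p at most 0.05 over all genes tested. Values in CPM use the TMM factors, and log2 ratios within an experiment were computed from the deposited counts with a prior count of 2. Same-numbered libraries deviated together from their group means (r 0.517 to 0.719 across genes over 6 pairs of groups), so the replicate number was used as a block. Replicates of a group differed by more than counting noise (chi-square per degree of freedom 31.5 to 61.5), so none was counted as a repeat deposit. DESeq2 1.42.0, limma 3.58.1 on log2(FPKM + 1), other scalings, filters, a GC correction, thinned Input and each library left out were tried. The model was tested on simulated data: the changes put in were recovered in the median, and false calls were more frequent than the adjusted threshold names. Gene classes, positions and strands come from GENCODE M21 on GRCm38, and sequences from its transcripts.

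The text names, among genes called, changed alike in both experiments and with at least 10 counts in each Input library, the 10 largest protein-coding gains and 10 largest losses, the 3 largest gains in each of 6 noncoding classes, the 3 largest noncoding losses, the 5 genes with most counts in LacZ, up to 3 called members a list, and Lhx1os, Lhx1, Malat1, Gapdh and Actb. The comparison, the gene lists and this rule were chosen with earlier results of these data known. Genes outside the rule are named as chosen after their values were seen, or to complete a list. Some genes that the rule selects are not reported here.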

Additional observations from a re-analysis of the deposited data

How the results depend on the processing

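Without the replicate block, that is without pairing the libraries, the protein-coding counts fell from 500 higher and 1147 lower to 75 and 71, and 0 noncoding genes were lower in place of 10. With the block but only the LacZ and Input libraries in the fit, the counts were 284 and 385 protein-coding and 4 noncoding lower. Removing the GC trend gave 776 protein-coding genes higher and 48 noncoding lower, and also recentring gave 1763 protein-coding and 63 noncoding lower. TMM factors from protein-coding genes gave 677 and 6 lower. A minimum of 50 counts in 2 libraries left 622 protein-coding and 6 noncoding lower and 688 noncoding higher, with fewer genes tested. A cut at an absolute log2 fold change of 1, put on the calls of the main fit without a new test, left 169 protein-coding genes higher. It left 115 protein-coding and 3 noncoding genes lower. limma on log2(FPKM + 1) gave 763 protein-coding lower, thinned Input 5 noncoding lower and no filter beyond 1 count 16 noncoding lower. Where no cause is given, the cause was not tested.

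Leaving out 1 library gave 111 to 878 protein-coding genes higher, 120 to 2426 lower, 777 to 1585 noncoding higher and 0 to 40 noncoding lower. The protein-coding counts were 111 and 165 without LacZ replicate 1, 139 and 120 without LacZ replicate 2, 878 and 2426 without Input replicate 1, and 800 and 1738 without Input replicate 2. Without ODD replicate 1 or 2, 689 or 676 protein-coding genes were lower. An arm left with 1 library was assumed to vary like the others. LacZ against ODD and EVEN gave 0 to 19 calls with 1 library left out, 11 in DESeq2 and 2 with no filter.

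Of the single-gene changes under these alternatives, 1731 stayed on their side of the threshold, 321 lost it, 3 gained it and 4 turned. Eif2s3y turned to -0.13 and -0.20, and Zfp950 to -0.31 and -0.38, with the GC trend removed and then recentred. Without the 10 genes of most counts, mean LacZ shares were 97.0% for protein-coding genes, 2.98% for all noncoding, 0.835% for long intergenic RNAs, 0.258% for processed pseudogenes and 0.0335% for scaRNAs. Over only genes that pass the filter, processed pseudogenes took 0.207%. LacZ libraries were the shallower ones, which limits low genes.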

Other observations

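Some genes were high in LacZ replicate 1 alone, a pattern chosen after seeing the data. With at least 50 counts and at least 2 times the level of each other library, 26 genes stood out there, 25 of them protein-coding, and 9 did at 3 times. The corresponding numbers at 2 times were 5 in LacZ replicate 2, 25 and 34 in the Input libraries, 52 and 0 in ODD and 51 and 1 in EVEN. Acsf2, a fatty acid activating enzyme of mitochondria, was at 811 CPM in LacZ replicate 1 and 25.1 CPM in LacZ replicate 2, and its level was 13.2 times that of the next library. For the pseudogene Gm5540 that ratio was 12.1, for the translocon gene Ssr2 7.57, for Cnep1r1, a phosphatase regulator of the nuclear envelope, 4.78, and for the transcription factor Sp1 4.19. Of these 5 genes Gm5540 was the 1 called against Input. The pattern rests on 1 library and was not tested.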
